A study of Mus musculus with 4 samples.

Results

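The levels of 10 cell surface and matrix genes of myoblast recognition and fusion were compared between mouse myoblasts with and without a knockdown of Sfmbt1, a gene for a chromatin protein with MBT repeats. The set was Mymk, Cdh15, Cdh2, Cdon, Boc, Neo1, Ncam1, Vcam1, Adam12 and Npnt. It was taken as every probe set that the array annotation gives to exactly 1 of these 10 genes, which made 31 of the 34945 probe sets with 1 gene, for 10 of 18193 genes. The knockdown group was C2C12 cells, a mouse myoblast line that forms multinucleated myotubes in culture, stably transduced with pLKO.1 carrying shSFMBT1. The control group was C2C12 cells stably transduced with pLKO.1 carrying a control hairpin, which the labels call scramble in 1 field and shLuc in others. Each group held 2 cultures that the series text describes as biological replicates grown independently, with 1 Affymetrix array per culture. All 4 cultures were kept under puromycin in serum-rich growth medium, and no differentiation step is described. The labels name a single Sfmbt1 hairpin, so other effects of that hairpin cannot be told apart from those of the knockdown, and no label says whether the cells were pools or clones.

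Myoblasts become muscle fibres by aligning, adhering and merging their membranes. Classical cadherins hold neighbouring myoblasts together, and the immunoglobulin superfamily co-receptors CDON and BOC, with neogenin, sit beside them and pass the contact signal on to the myogenic programme. Myomaker, a multipass membrane protein made as myoblasts differentiate, is needed for the membranes of both partner cells to merge.

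Values are MAS5 signals, linear intensity values per probe set. The median signal was 92.8 and 101.1 on the knockdown arrays and 97.8 and 102.7 on the control arrays. The background limit, under which 95% of 27 control probe sets for bacterial transcripts lay, was 69.3 and 42.9 in the knockdown and 49.1 and 53.2 in the control. Each of the 5 Sfmbt1 probe sets had both knockdown signals under both control signals, although 1 of them lay in the background range on all 4 arrays. In probe set 1422894 it had 74.6 and 16 in the knockdown against 241.7 and 277.9 in the control, which is at least 4.58-fold lower with the array in the background range put at its limit (limma adjusted p = 0.0219). This probe set reached the filter on dim signals through the control arrays alone, so a difference was built into its selection for the test. The 3 other Sfmbt1 probe sets tested stood at 43.7%, 67.7% and 69.2% of the control and did not pass (limma adjusted p = 0.0594, 0.333 and 0.339), so the size of the knockdown depends on the probe set. The 6 myoblast markers examined (Myod1, Myf5, Des, Pax7, Msc and Itga7) were above background on every array. Msc was called higher (log2 1.54, limma adjusted p = 9.15e-04) and 0 were called lower, with a median log2 difference of -0.25. At an unadjusted p under 0.05, 1 was higher and 2 were lower (limma). The 2 lower were Pax7 (log2 -0.97, limma adjusted p = 0.0539, with -0.11 in its other tested probe set) and Myod1 (log2 -0.31, limma adjusted p = 0.289). The part of the myoblast markers in the results below was not tested. Cd3e and Ptprc of the leukocyte list, Pecam1 of the endothelial list and Adipoq of the adipocyte list were above background on none. Of the other genes of these lists on the array, 2 of the 4 leukocyte genes were above background on all 4 arrays, 3 of the 4 endothelial genes on at least 1 array and 1 of them on all 4, and 2 of the 3 adipocyte genes on at least 1 array and 1 of them on all 4. None of the 5 genes tested from these 3 lists was called or had an unadjusted p under 0.05 (limma). RNA quality can shift probe sets of a gene against each other. The 3′ to 5′ log2 ratio was -0.29 and -0.31 in the knockdown and -0.32 and -0.30 in the control for Gapdh, and 1.51 and 1.58 in the knockdown and 1.16 and 1.65 in the control for the transferrin receptor gene. The summed signal of 6 fibroblast markers was 34030 and 37039 in the knockdown and 30354 and 29689 in the control, with 2 of the 6 genes called higher and 0 lower, and its part in the results below was not tested. That of 9 markers of differentiating myocytes (Myog, Myh3, Myh8, Tnnt1, Tnni1, Acta1, Actc1, Ckm and Mylpf) was 7454 and 8119 in the knockdown and 1907 and 1500 in the control.

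In the Sfmbt1 knockdown the fusion gene Mymk rose to 317% of the control signal and the matrix gene Npnt rose in 2 of its 5 probe sets, while the cadherins, BOC, NCAM1, VCAM1 and ADAM12 genes did not pass the test in either direction. Cdon was split: a dim probe set fell into the background range in both knockdown cultures while the bright probe set stood at 96.9% of the control. With each gene represented by its brightest probe set, 2 of the 10 genes were called higher and 0 lower at an adjusted p under 0.05 (limma, knockdown minus control on log2(signal + 16), Benjamini-Hochberg over all genes). Among all 12866 genes tested, 1.44% were called higher and 1.61% lower, or 3.05% in all. The median log2 difference was -0.02 over the 10 genes and 0.015 over all genes tested, and 5 of the 10 had a positive difference. At an unadjusted p under 0.05 there were the same 2 genes and no others, both higher, where 7.89% of all genes tested were higher and 7.14% lower at that p. Without the filter on dim probe sets, or without the trend of variance on signal level, limma called 0 of the 10, with 2 at an unadjusted p under 0.05 in both settings.

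Of the 31 probe sets, 28 passed the filter on dim signals, and each gene had at least 1 of them. The other 3 were probe sets 1426869 and 1427517 of Boc and 1421966 of Ncam1. When every probe set was tested on its own, 3 were called higher and 1 lower, where 0.961% and 1.43% of all 22893 probe sets tested were. The groups did not overlap, with the knockdown higher, in 7 of the 28, or 25.0%, where 21.6% of all tested probe sets did so. The knockdown was lower without overlap in 8, or 28.6%, where 24.0% of all tested probe sets did so. These shares are near the background. In bulk RNA, fewer cells that express a gene and less RNA per cell cannot be told apart.

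**Figure D1:**
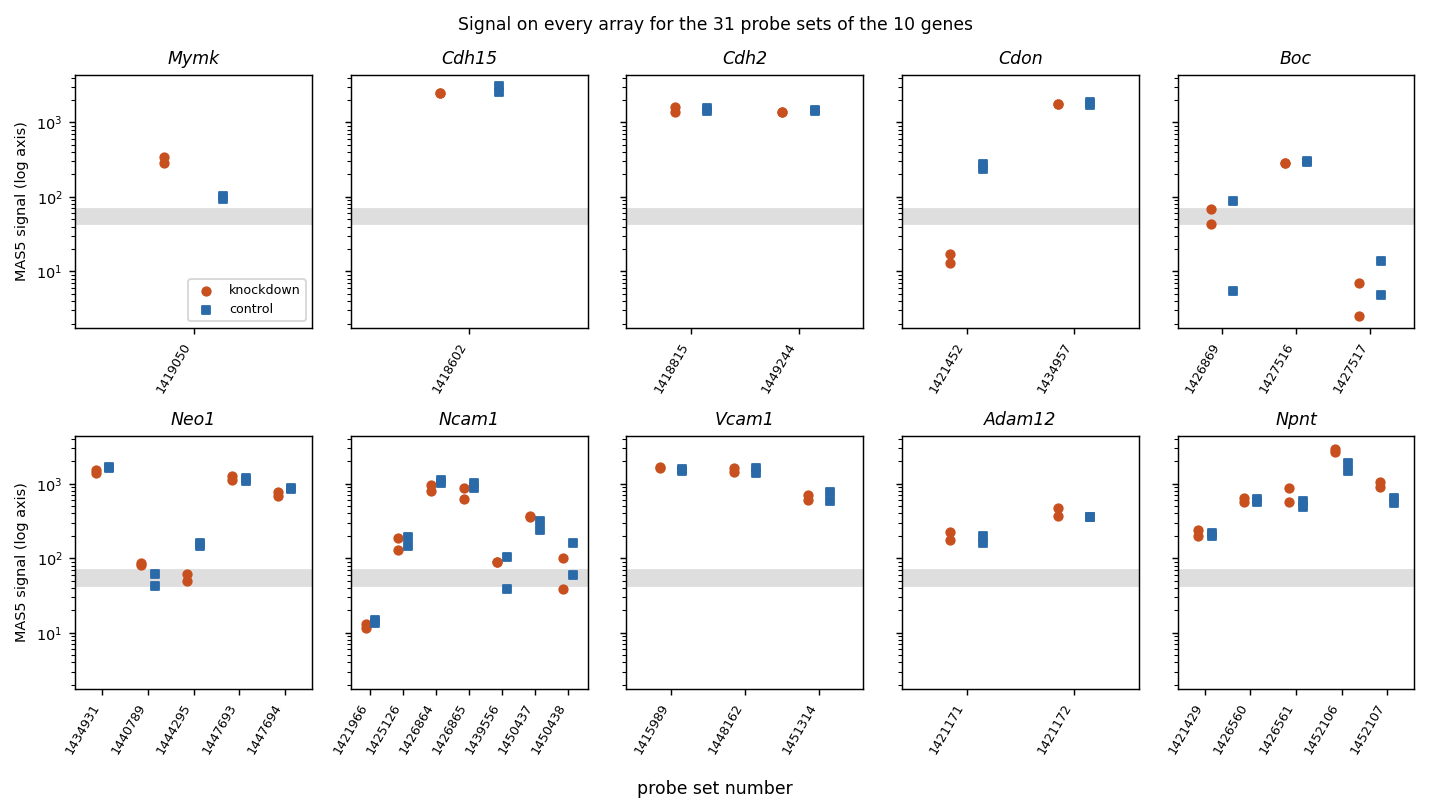
MAS5 signal (log axis) of the 31 probe sets on the 2 knockdown arrays (circles, left) and the 2 control arrays (squares, right), 1 panel per gene, with the range of background limits in grey. Mymk and the right-hand pair of Npnt probe sets were higher in the knockdown, and Cdon probe set 1421452 was below the grey band in both knockdown arrays.

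Mymk encodes myomaker. Its single probe set had signals of 340.7 and 284.1 in the knockdown against 94.5 and 102.8 in the control. Both knockdown cultures stood well above both control cultures, and all 4 signals were above background. The mean was 312 ± 40 in the knockdown and 98.7 ± 5.87 in the control (SD, n = 2 each), and the log2 difference was 1.51 with a 95% interval of 0.98 to 2.05 (limma adjusted p = 0.00312). That placed Mymk 39th from the top of 12866 genes. Leaving out each array in turn gave 1.39 to 1.64. The call was lost without the filter (adjusted p = 0.0926) and without the variance trend (adjusted p = 0.1). The markers of differentiating myocytes moved with it, 7 of the 8 tested being called higher and 0 lower, and their part in the Mymk result was not tested. Of those called, Tnnt1 (102.2 and 19.6 in the control) and Tnni1 (94.6 and 30.5) had 1 control array in the background range. Both reached the filter through the knockdown arrays alone, so a difference was built into their selection for the test.

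The cadherins are the calcium-dependent adhesion proteins of the myoblast surface. Cdh15, which encodes M-cadherin, the cadherin characteristic of the muscle lineage, had signals of 2481.5 and 2483.5 in the knockdown and 2521.8 and 3074.0 in the control. The knockdown signals were just under the lower control signal, and the log2 difference was -0.16 with an interval of -0.44 to 0.11 (limma adjusted p = 0.622). Cdh2, the gene of N-cadherin, had 1377.8 and 1614.2 in the knockdown and 1424.0 and 1559.9 in the control in its brighter probe set, where the groups overlapped. Its log2 difference there was 0.00, with an interval of -0.29 to 0.30, and -0.05 in the second probe set, with -0.33 to 0.23.

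CDON, BOC and neogenin are related receptors of the immunoglobulin superfamily. CDON and BOC bind cadherins and also act as Hedgehog co-receptors, and neogenin binds netrins and repulsive guidance molecules. The bright Cdon probe set, 1434957, had 1740.9 and 1741.3 in the knockdown and 1737.8 and 1856.3 in the control. The knockdown values lay within the control range, and the log2 difference was -0.04 with an interval of -0.32 to 0.23 (limma adjusted p = 0.921). The dim one, 1421452, had 12.9 and 16.9 in the knockdown against 278.9 and 238.9 in the control. Both control signals were far above background and both knockdown signals were below it, so the level in the knockdown is only a bound, at least 4.73-fold lower than in the control. In the test of every probe set its log2 difference was -3.15 with an interval of -4.01 to -2.30 (limma adjusted p = 0.00217), and 2 of the 22893 probe sets, this one included, had a difference this low. It passed the filter through the control arrays alone, so a difference was built into its selection for the test. The fitted size also depends on the pseudocount, from -4.04 with a pseudocount of 1 to -2.03 with 64, and the call was lost without the variance trend (limma adjusted p = 0.12).

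The difference between the Cdon probe sets was tested directly, as the log2 ratio of the dim to the bright one in a limma fit over 10027 such pairs within genes, a test added after the values were seen. The ratio was lower in the knockdown by -3.11 log2 units, with an interval of -4.05 to -2.16, and did not pass (adjusted p = 0.109, and 0.422 with the variance trend taken on the mean ratio). In that test 0.0% of pairs were called, 0 in all, while 1251 had an unadjusted p under 0.05. The Cdon pair was among these (limma unadjusted p = 5.46e-05). The annotation gives a RefSeq mRNA as the source of the dim probe set and another GenBank record as that of the bright one, and which part of the transcript each reads was not looked up. A called beside an uncalled probe set was common on these arrays. Of 330 genes with several tested probe sets and at least 1 called, 303, or 91.8%, also had an uncalled one. In 92, or 27.9%, an uncalled one was within 0.1 log2 units of 0. These counts take no account of the size of the split, so they do not say how common one as large as that of Cdon was. With the median of a gene's probe sets in place of the brightest, Cdon was called lower (log2 -1.60, limma adjusted p = 0.00112). Cdon has 2 probe sets, so this median is their mean and takes its difference from the dim one. It adds no separate result for the gene.

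Boc had 288.1 and 287.3 in the knockdown and 296.9 and 307.9 in the control in probe set 1427516. The knockdown arrays were slightly under both control arrays, and the log2 difference was -0.07, with an interval of -0.48 to 0.34 (limma adjusted p = 0.920). Its 2 other probe sets were dim: 1427517 was in the background range on all 4 arrays, and 1426869 was above it on 1 control array alone. Neo1 had 1532.8 and 1397.1 in the knockdown and 1673.8 and 1623.9 in the control in its brightest probe set, 1434931, a log2 difference of -0.17 with an interval of -0.45 to 0.11 (limma adjusted p = 0.610). Both knockdown signals were below both control signals there.

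The dimmer Neo1 probe sets differed in sign among themselves, and none of the 4 passed the test against the brightest (limma adjusted p = 0.297 to 0.89, and 0.422 to 0.909 with the trend on the mean ratio). Probe set 1444295 had 62.5 and 49.9 in the knockdown against 147.0 and 162.9 in the control, with 1 knockdown array in the background range, and was at least 2.63-fold lower with that array at its limit. Its log2 difference of -1.25 (interval -2.0 to -0.50) did not pass over all probe sets (limma adjusted p = 0.0883). It passed without knockdown replicate 1 (-1.37, limma adjusted p = 0.0284), and like the dim Cdon probe set it reached the filter through the control arrays alone. Probe set 1440789 had 81.4 and 86.9 in the knockdown against 43.0 and 61.0 in the control, a log2 difference of 0.57 with an interval of -0.37 to 1.51, and reached the filter through the knockdown arrays alone. The last 2, 1447693 and 1447694, differed by 0.06 and -0.24 and did not pass.

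**Figure D2:**
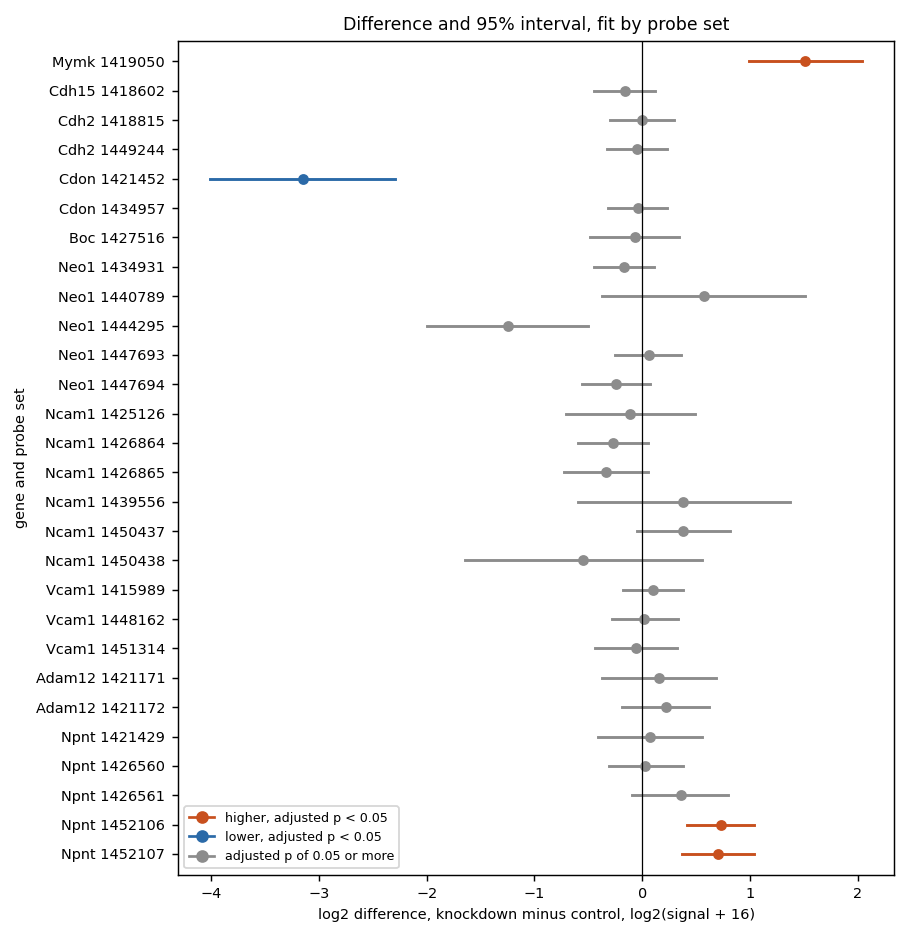
Log2 difference (x axis, knockdown minus control, with 95% interval) of the 28 probe sets that passed the filter, from the fit of every probe set. The Mymk probe set and 2 of the 5 Npnt probe sets were called higher and 1 Cdon probe set was called lower, while the intervals of the other 24 cross 0 except that of Neo1 1444295, whose adjusted p was 0.0883.

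NCAM1 and VCAM1 are immunoglobulin-type adhesion molecules. NCAM1 binds itself on the neighbouring cell and VCAM1 binds an integrin that contains the Itga4 subunit. In the brightest Ncam1 probe set, 1426864, signals were 808.6 and 970.4 in the knockdown against 1019.7 and 1127.5 in the control. The groups did not overlap, and the log2 difference was -0.27 with an interval of -0.59 to 0.05 (limma adjusted p = 0.432). Probe set 1426865 of the same gene had 632.9 and 890.2 in the knockdown and 889.1 and 1023.6 in the control, a difference of -0.34, and passed without knockdown replicate 2 (-0.58, limma adjusted p = 0.0334). Probe set 1450437 went the other way, with 374.9 and 353.2 in the knockdown against 317.4 and 238.4 in the control, a difference of 0.38 that did not pass (limma adjusted p = 0.393). The remaining 3 tested Ncam1 probe sets differed by -0.55 to 0.38, with overlapping groups. With the median over its probe sets the Ncam1 difference was 0.14 and did not pass, so the sign for this gene depends on the probe set.

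Vcam1 was close to the control in all 3 of its probe sets. In the brightest it had 1673.8 and 1604.8 in the knockdown against 1471.2 and 1595.9 in the control, both knockdown signals being just above the higher control signal. The log2 difference was 0.10 with an interval of -0.18 to 0.38 (limma adjusted p = 0.806), and the other probe sets gave 0.02 and -0.06. Adam12 encodes a membrane-anchored metalloprotease and adhesion protein of regenerating muscle. Its brighter probe set had 365.3 and 470.5 in the knockdown against 353.9 and 354.3 in the control. Both knockdown signals were above both control signals, and the log2 difference was 0.22 with an interval of -0.18 to 0.62 (limma adjusted p = 0.654). The second probe set had 177.4 and 226.0 in the knockdown and 199.0 and 158.1 in the control, with overlapping groups. Across the 8 genes not called, the log2 difference lay between -0.27 and 0.22, and their intervals reached from -0.59 to 0.62.

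Npnt encodes nephronectin, a secreted matrix protein that binds an integrin through an RGD motif. Its brightest probe set, 1452106, had 2700.1 and 2917.5 in the knockdown against 1487.6 and 1909.4 in the control. The groups were well apart, with means of 2809 ± 154 in the knockdown and 1698 ± 298 in the control (SD, n = 2 each). The log2 difference was 0.73 with an interval of 0.43 to 1.03 (limma adjusted p = 0.00980), the 345th highest of 12866. Probe set 1452107 had 917.2 and 1052.8 in the knockdown against 558.5 and 638.6 in the control, a difference of 0.70 (limma adjusted p = 0.0374 in the test of every probe set). In both the knockdown mean was 165% of the control mean.

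The other 3 Npnt probe sets had overlapping groups. They were 1421429, with 243.3 and 201.0 in the knockdown and 221.6 and 197.7 in the control, 1426560, with 653.9 and 574.2 in the knockdown and 564.8 and 634.1 in the control, and 1426561, with 866.9 and 561.1 in the knockdown and 594.1 and 493.8 in the control. Their log2 differences were 0.07, 0.03 and 0.36. Set against the brightest probe set, 1426560 differed by -0.70 log2 units, with an interval of -1.10 to -0.29, and did not pass over all pairs (limma adjusted p = 0.215, and 0.443 with the trend on the mean ratio). With the median over the probe sets the difference was 0.23 (limma adjusted p = 0.624). Without control replicate 1, Npnt did not pass (log2 0.55, limma adjusted p = 0.1), nor did probe set 1452107 (0.61, limma adjusted p = 0.192).

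Of the 10 genes, 4 had a promoter window in the RefSeq table of the GRCm38.p6 build (Cdh15, Cdon, Neo1 and Npnt). Npnt had windows at 2 starts. The 250 bases before the start are shown for the upstream start of Npnt, the called gene with a window, and for Cdh15, the muscle cadherin that was not called. Capitals mark the E-box, CANNTG, the letters bound by MyoD and myogenin among other basic helix-loop-helix factors, which reads the same on both strands. The Npnt window is chr3:132950292-132950541 on the minus strand, and the Cdh15 window is chr8:122848124-122848373 on the plus strand, both printed 5′ to 3′ along the gene.
Npnt: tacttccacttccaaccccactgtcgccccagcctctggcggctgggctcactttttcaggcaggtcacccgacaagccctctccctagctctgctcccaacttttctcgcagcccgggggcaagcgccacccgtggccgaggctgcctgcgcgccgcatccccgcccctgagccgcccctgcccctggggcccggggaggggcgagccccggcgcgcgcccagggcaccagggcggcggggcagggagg
Cdh15: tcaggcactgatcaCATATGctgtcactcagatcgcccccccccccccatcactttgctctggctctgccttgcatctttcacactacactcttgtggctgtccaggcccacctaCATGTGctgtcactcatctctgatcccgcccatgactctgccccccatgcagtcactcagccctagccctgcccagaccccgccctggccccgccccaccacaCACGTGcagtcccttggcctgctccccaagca
The Npnt window shown held 0 E-boxes and the Cdh15 window 3. The window of the other Npnt start, at chr3:132949815-132950064, lies past the first start and held 2, both CAGGTG, so the count for Npnt depends on the start taken. The Cdon and Neo1 windows held 0. Among 32851 windows of this length, 66.2% held at least 1 and 12.2% at least 3. The Npnt window shown was 74.0% G and C and the Cdh15 window 62.0%. These matches describe the letters alone.

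Genes that work with the 10 were examined as 4 lists, and no list was tested as a set. Among all genes tested, 1.44% were called higher and 1.61% lower, and the called counts of each list read against these shares. Of 27 tested genes among 32 fusion effectors, 0 were called higher and 1 lower, with a median log2 difference of -0.09. Mymx, Cav3, Adgrb1 and Adgrb3 were on the array but did not pass the filter on dim signals, and Fer1l5 had no probe set assigned to it alone. At an unadjusted p under 0.05 there were 1 higher and 4 lower of the 27, where 7.89% of all genes tested were higher and 7.14% lower, and the unadjusted counts of the other lists read against the same shares. The gene called lower was Cxcr4, a chemokine receptor of migrating myoblasts, with 518.9 and 515.5 in the knockdown against 851.6 and 866.4 in the control. Its groups were well apart (log2 -0.71, limma adjusted p = 0.0173), but the call was lost when control replicate 1 (adjusted p = 0.0600) or control replicate 2 (adjusted p = 0.0688) was left out. Of 10 tested cadherins and catenins, 0 were called in either direction by limma, with a median of -0.03, and 0 higher and 2 lower had an unadjusted p under 0.05.

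Of 19 tested partners of CDON, BOC and neogenin, 0 were called higher and 2 lower, with a median of 0.01, and 2 higher and 2 lower had an unadjusted p under 0.05. Bnip2 encodes a scaffold protein that binds the cytoplasmic tail of CDON. It had 1836.8 and 2020.1 in the knockdown against 3333.4 and 3283.5 in the control, and its log2 difference was -0.78 (SE 0.12, limma adjusted p = 0.00238). Its 3 other tested probe sets gave -0.98, -0.69 and -0.25, and leaving out each array in turn gave -0.84 to -0.71 with every adjusted p under the threshold. Gas1, a further Hedgehog co-receptor beside CDON and BOC, had 3657.5 and 3637.2 in the knockdown against 4846.6 and 5436.5 in the control. Its difference was -0.49 (limma adjusted p = 0.0342). The remaining Gas1 probe sets gave -0.78 and -0.37. The call was lost when control replicate 1 (adjusted p = 0.0584) or control replicate 2 (adjusted p = 0.282) was left out.

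Of 21 tested partners of NCAM1, VCAM1, ADAM12 and nephronectin, 1 was called higher and 2 lower, with a median of 0.11. At an unadjusted p under 0.05 there were 2 higher and 2 lower (limma). Adam10, the gene of a sheddase that cleaves cadherins, had 2153.8 and 2132.4 in the knockdown against 1459.1 and 1483.9 in the control (log2 0.54, limma adjusted p = 0.0316). Fgfr1, a growth factor receptor that NCAM1 binds, had 2739.2 and 2439.3 in the knockdown against 3769.4 and 3892.6 in the control (log2 -0.56, limma adjusted p = 0.0196). Igfbp5, a growth factor binding protein gene and ADAM12 substrate, had 9299.2 and 9315.9 in the knockdown against 13126.1 and 12991.8 in the control (log2 -0.49, limma adjusted p = 0.0218). In each of the 3 the groups were apart. None of the 3 passed without control replicate 1 (adjusted p of 0.157 for Adam10, 0.0598 for Fgfr1 and 0.129 for Igfbp5) or control replicate 2 (adjusted p of 0.113 for Adam10, 0.0964 for Fgfr1 and 0.0995 for Igfbp5). The other tested probe sets gave -0.23 and -0.20 for Fgfr1, 0.17 and 0.44 for Adam10 and -1.06 for Igfbp5. With the median over probe sets Fgfr1 differed by -0.23 (adjusted p = 0.416) and Adam10 by 0.39 (adjusted p = 0.218), and both were then not called. With probe sets whose names end in _s_at, _x_at or _a_at left out, Fgfr1 was at -0.20 and not called (limma adjusted p = 0.737). Of the 6 partner genes called, Bnip2 was called without the filter as well (limma adjusted p = 0.0405) and the other 5 were not, and none of the 6 was called without the variance trend (adjusted p of 0.246 for Bnip2).

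**Figure D3:**
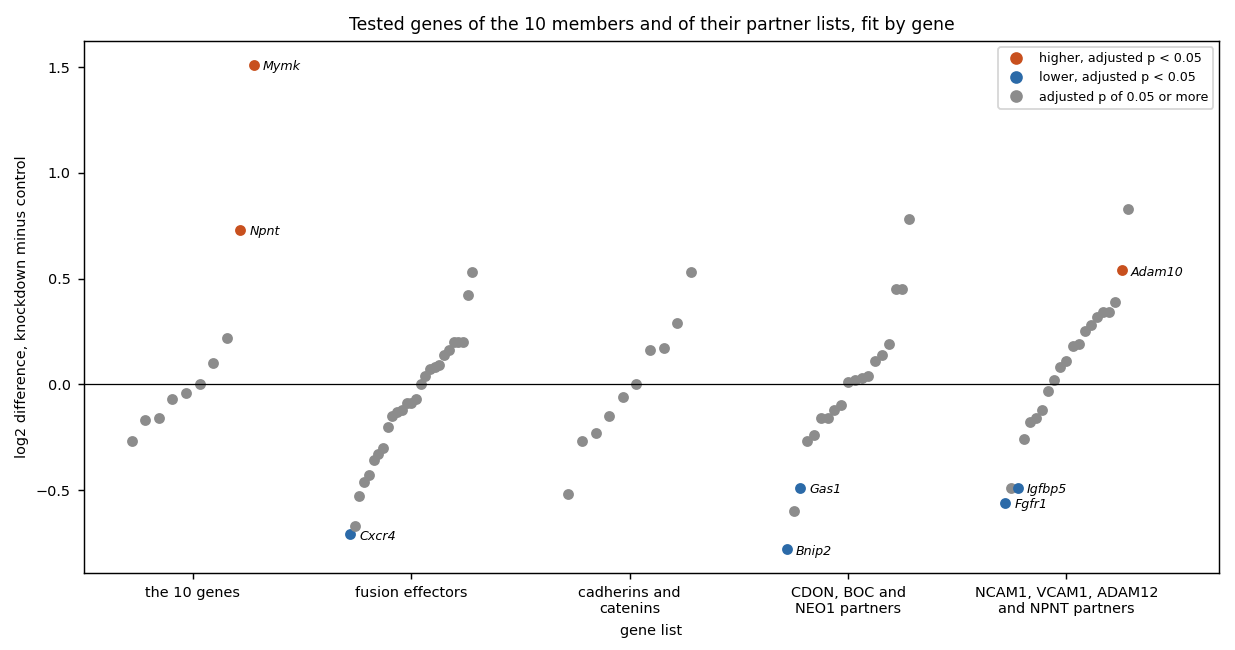
Log2 difference (y axis, knockdown minus control) of each tested gene among the 10 genes and the 4 partner lists, 1 point per gene, from the fit with 1 probe set per gene. Mymk at 1.51 and Npnt at 0.73 are the called members, and Bnip2 at -0.78 is the lowest of the called partners.

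The 3 genes outside the set whose log2 signals over the 4 arrays, less their own mean, lay closest to those of Mymk were Glrb, Tango2 and Tnnc1. Their root mean square distances were 0.080, 0.080 and 0.1 log2 units. Tango2 had 176.1 and 131.0 in the knockdown against 47.2 and 46.2 in the control, where both signals lay in the background range, so its distance and its place in this order are not firm. Glrb, a glycine receptor subunit gene, had 274.0 and 230.4 in the knockdown against 86.9 and 88.7 in the control. Tnnc1, the gene of slow and cardiac troponin C, had 995.7 and 959.0 in the knockdown against 308.9 and 303.2 in the control. Closest to Npnt were Ppp2r2b, Gab1 and Rsbn1, at 0.035, 0.036 and 0.038. These were themselves not called (limma adjusted p = 0.279, 0.0833 and 0.175), and neither was Tango2 (0.0638). Glrb (limma adjusted p = 0.0122) and Tnnc1 (3.56e-05) were called higher. Over 4 arrays such closeness says little beyond a similar difference between the groups.

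**Figure D4:**
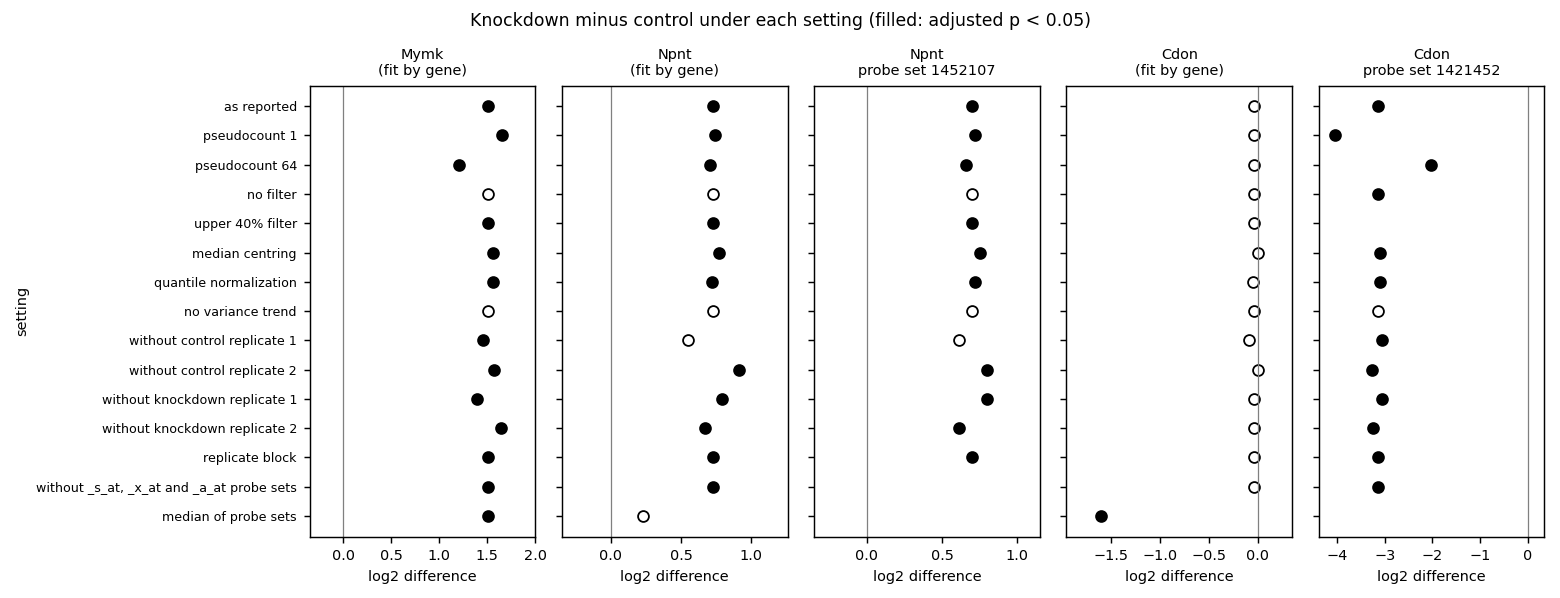
Log2 difference (x axis) of Mymk, Npnt and Cdon and of 2 further probe sets as reported and under each alternative setting (y axis), filled where the adjusted p was under 0.05. An empty place means that the setting leaves the probe set untested or has no fit for it. Mymk stayed between 1.21 and 1.65, Npnt was at 0.23 with the median over probe sets, and Cdon was at -1.60 there, the mean of its dim and bright probe sets.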

How the data were processed

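RNA from 4 cultures was measured on 1 array each. The deposited values are linear intensity values per probe set, MAS5 signals from GCOS per the submitters' processing notes. Those notes name no version, and the scaling between arrays is unknown here, so the signals were compared as the authors left them. All 4 sample columns were used as deposited. The array annotation gave 1 gene for 34945 of 45101 probe sets, several for 932 and none for 9160, and 64 were controls. Symbols were checked against RefSeq GRCm38.p6 (34741 matched, 0 changed). No probe set of the 10 genes was shared with another gene.

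Signals were taken as log2(signal + 16), a scale that understates the change of dim genes. The filter kept the 60% of probe sets with the highest mean on this scale, which put the limit at a signal of 57.3. Differences, knockdown minus control, were fitted with limma 3.58.1 (lmFit, eBayes with a trend of variance on level) in R 4.3.3, with 2 residual degrees of freedom and a prior of 13.8 in the fit with the brightest probe set per gene and of 9.6 in the fit of every probe set, and p-values were Benjamini-Hochberg adjusted over all genes or probe sets tested. An exact permutation test of 2 against 2 arrays cannot go below p = 0.333. The number of arrays limits the precision, and p-values rest on the spread between these cultures alone. The spread used for each gene was drawn largely from that of genes of like signal level. The limma fit with the brightest probe set per gene was run on simulated data with known changes. The filter, the test between probe sets and the background bounds were not simulated. Where signals lay in the background range, folds are bounds on log2(signal) with those arrays at their background limit or at their own signal, whichever was higher.

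The test of the difference between probe sets of a gene was added after the values were seen, and so was the choice of its variance trend: it was first run with the trend on the mean ratio and then with the trend on the level of the dimmer probe set. Neither form called any pair, and the report gives both adjusted p-values. The probe sets of Npnt and Cdon compared there were chosen for their values.

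The genes named are the 10 members with every probe set, Sfmbt1, the called genes of each partner list (at most 4 in each direction) and the 3 nearest patterns of each called member. Of 139 list symbols, 135 were matched on the array. Members, lists and tests were chosen with earlier results of these data known. The alternatives were other pseudocounts, filters, scalings and probe set rules, no variance trend, each array left out and the replicate number as a block. The titles number the replicates 1 and 2 in both groups, but the deviations of same-numbered arrays correlated at 0.006 over 27022 probe sets. The arrays were therefore not paired in the fit. This correlation cannot see a shift of whole arrays, and the median signal was lower for replicate 1 than for replicate 2 in both groups. With the replicate number as a block, limma called 546 genes against 392.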

Additional observations from a re-analysis of the deposited data

How the results depend on the processing

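Of 258 comparisons of a single gene or probe set with an alternative, 217 kept both direction and side of the threshold, 34 lost a call, 2 gained a call and 5 turned sign. Among the 10 genes, 2 were called higher and 0 lower, against 0 higher without the filter and 0 without the variance trend, and 1 higher and 1 lower with the median over probe sets. The gene called lower there was Cdon, whose median takes its difference from the dim probe set. Without the filter or the trend, 2 genes higher and 0 lower still had an unadjusted p under 0.05. Leaving out each array gave 1 to 2 higher and 0 lower. Of the probe sets, 3 were called higher and 1 lower, against 0 higher without the filter, 0 higher and 0 lower without the trend, and 0 lower with the upper 40% filter, under which the dim Cdon probe set was not tested. At an unadjusted p under 0.05 there were 3 higher without the filter, 4 higher and 2 lower without the trend, and 0 lower with the upper 40% filter. Leaving out each array gave 1 to 4 higher and 1 to 2 lower. Without control replicate 1 the calls of Npnt were lost, and without knockdown replicate 2 1 more Npnt probe set, 1426561, was called higher (0.66, limma adjusted p = 0.0185). Of the genes whose sign turned, Cdh2 and Cdon lay near 0 and Ncam1 was at -0.27. Cdh2 ran from -0.11 to 0.11 and Cdon from -0.09 to 0.00 over the left-out arrays, and with the median over probe sets Cdh2 was at -0.02 and Ncam1 at 0.14. The replicate number as a block gave 2 genes higher and 0 lower and 3 probe sets higher and 1 lower, and changed no call named here. Apart from the median over probe sets and from settings with fewer arrays or probe sets, the cause was not tested.

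Over all 12866 genes, limma called 392, against 55 of 18193 without the filter, 607 with the upper 40% filter, 0 without the trend (1501 at an unadjusted p under 0.05), 671 without knockdown replicate 1 and 617 without knockdown replicate 2. With the median over probe sets it called 241. The higher share was 47.2%, against 60.9% with median centring, 62.4% without control replicate 2, 60.7% without knockdown replicate 1 and 27.1% without knockdown replicate 2. Signals near or below the background limit bound what these arrays can show, as in Boc 1426869 and 1427517 and, in the knockdown, Neo1 1444295 and the dim Cdon probe set.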
